A study of Drosophila melanogaster with 2 samples.

Results

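Of 1883 toy-eGFP peaks on the chromosome arms of Drosophila melanogaster embryos, 218 had their summit between genes and away from every promoter. They made up 11.6% of the peaks (Wilson 95% interval 10.2 to 13.1%), while sequence that meets the same position rule covers 28.3% of the arms. A peak was a member where its summit lay inside no annotated gene, coding or non-coding, and over 500 bp from every transcription start site (TSS) of the Ensembl annotation, so the position chose the members and their signal did not. The other 1665 peaks were 964 promoter-proximal ones, with a summit within 500 bp of a TSS, and 701 with a summit inside a gene. All came from the pooled thresholded list, which the authors made from both replicates with the irreproducible discovery rate (IDR), a measure of how poorly a peak repeats between 2 peak sets. The samples were 2 biological replicates of whole embryos, 0 to 24 h old, from the toy-GFP strain. These flies carry an eGFP fusion of toy as a transgene, and, per the samples' descriptions, an anti-GFP antibody precipitated the fusion protein after sonication, while the antibody label itself reads toy. There is 1 group and no contrast, whole embryos hold all embryonic tissues, and no source used here gives the promoter that drives the transgene, so no peak can be placed in a cell type.

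Twin of eyeless, the protein that toy encodes, belongs to the Pax6 class of transcription factors. It has a paired domain and a homeodomain, both of which contact DNA, and acts above eyeless at the start of eye development and in the embryonic head and brain. Sequence between genes can hold enhancers, which act on a promoter over a distance, as well as silencers, insulators and the start sites of unannotated RNAs. A ChIP peak shows where the tagged protein was recovered with chromatin, directly or through other proteins, and the nearest gene is a label of position that need not be the gene acted on.

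These sequences show the DNA under some of the highest intergenic signals and some of the closest matches to motifs of a Pax6 protein. No sequence is printed for the strongest member, between Su(z)2 and CG13323, or for the strong members by CycB and RYBP. The first 8 below are the 7 strongest members for which sequence is given and the chinmo peak ranked next among the 3 strong ones there, each with the summit base and 50 bases to either side. The next is the summit base and 100 bases to either side for a member near CG45263. It is one of 2 members with a match to the Pax6 paired-domain consensus at 1 mismatch, the closest found. The other, near en, is not printed. The last 2 are members with an exact homeodomain dimer within 50 bases of the summit. Such a dimer is a pair of homeodomain cores with 3 bases between them. Coordinates are dm6, the sequence is from the RefSeq assembly of the same release, and each runs 5′ to 3′ on the + strand. Capitals mark matches on either strand to a chosen set of motifs, and E-boxes and homeodomain dimers with a mismatch are left in lower case. In the tara, chinmo and sp3 peaks they mark GCCAT, the core bound by the Polycomb recruiter Pho, CGATA, the site of the insulator protein BEAF-32, or GAGAGA, the site of GAGA factor. In the last 3 they mark only the paired-domain match or the dimer.
peak upstream of tara (chr3R:16222416-16222516, + strand): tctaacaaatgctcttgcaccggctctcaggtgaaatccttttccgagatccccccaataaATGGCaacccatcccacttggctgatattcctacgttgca
peak upstream of foxo (chr3R:14053550-14053650, + strand): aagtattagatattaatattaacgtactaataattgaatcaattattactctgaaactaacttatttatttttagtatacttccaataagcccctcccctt
peak upstream of CG17896 (chrX:493955-494055, + strand): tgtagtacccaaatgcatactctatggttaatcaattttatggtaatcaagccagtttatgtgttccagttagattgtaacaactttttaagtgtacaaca
chinmo peak at 12470 bp (chr2L:1638738-1638838, + strand): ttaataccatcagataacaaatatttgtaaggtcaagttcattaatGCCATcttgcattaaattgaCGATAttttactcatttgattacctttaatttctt
peak upstream of sp3 (chr3R:21520311-21520411, + strand): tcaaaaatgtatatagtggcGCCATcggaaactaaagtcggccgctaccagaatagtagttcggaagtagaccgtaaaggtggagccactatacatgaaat
chinmo peak at 18472 bp (chr2L:1632736-1632836, + strand): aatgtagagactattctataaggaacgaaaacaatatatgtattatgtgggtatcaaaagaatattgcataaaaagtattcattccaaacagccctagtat
peak upstream of CG43245 (chr3L:10752723-10752823, + strand): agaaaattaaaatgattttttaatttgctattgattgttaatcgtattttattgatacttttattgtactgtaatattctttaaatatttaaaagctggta
chinmo peak at 7841 bp (chr2L:1643367-1643467, + strand): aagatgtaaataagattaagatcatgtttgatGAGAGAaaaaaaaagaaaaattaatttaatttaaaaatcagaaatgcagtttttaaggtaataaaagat
peak nearest CG45263 (chr3R:8483035-8483235, + strand): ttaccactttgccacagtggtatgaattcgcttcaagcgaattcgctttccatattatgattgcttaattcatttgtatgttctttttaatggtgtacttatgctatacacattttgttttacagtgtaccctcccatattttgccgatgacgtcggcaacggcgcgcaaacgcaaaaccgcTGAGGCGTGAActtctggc
peak nearest Gr89a (chr3R:16497600-16497700, + strand): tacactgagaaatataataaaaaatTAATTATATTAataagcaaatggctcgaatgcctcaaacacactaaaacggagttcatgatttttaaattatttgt
peak nearest Atet (chr2L:4333057-4333157, + strand): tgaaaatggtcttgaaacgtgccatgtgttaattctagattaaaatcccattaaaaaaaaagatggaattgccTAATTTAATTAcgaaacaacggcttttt

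The strongest intergenic peaks were close to the same height in both replicates. The first by signal value, the authors' measure of peak height in units whose scaling no source used here gives, lay at 2R:13035244-13035460 between Su(z)2, a Polycomb group gene, and CG13323, with 490.4 in the series, 241.0 in replicate 1 and 241.4 in replicate 2. Its summit was 11946 bp from the nearest TSS, that of CG13323, and 27399 bp from the end of Su(z)2. The peak 3185 bp upstream of tara (taranis, a nuclear protein of the trithorax group) had 461.1 in the series, 210.1 in replicate 1 and 253.1 in replicate 2. This one was also 929 bp from the start of a long non-coding RNA, lncRNA:CR45643.

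Upstream of foxo, the forkhead factor that insulin signalling restrains, a pair of peaks stood 1190 bp apart. The stronger, 3345 bp from the TSS, had 354.1 in the series, 183.7 in replicate 1 and 176.3 in replicate 2. The weaker, at 4535 bp, had 177.4 in the series, 72.3 in replicate 1 and 105.8 in replicate 2. The same foxo peak was the stronger one in both replicates.

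A smaller number of strong members differed between replicates. The peak 510 bp upstream of CG17896 had 351.6 in the series, 130.3 in replicate 1 and 222.1 in replicate 2. The one 567 bp upstream of sp3, with the homeobox gene C15 on its other side, had 315.8 in the series, 93.2 in replicate 1 and 224.2 in replicate 2. Among the 20 strongest members the sp3 peak had the largest log2 ratio of replicate 2 over replicate 1, 1.27. Between blw, which encodes an ATP synthase subunit, and CycB, the mitotic cyclin B, lay a peak in a gap of only 1340 bp. Its replicate values were closer, with 347.3 in the series, 184.9 in replicate 1 and 160.8 in replicate 2.

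The rest of the 20 strongest ranged from 341.3 down to 172.9 in the series. They included 3 peaks upstream of chinmo, one between RYBP and Ppa (236.4), and one each nearest to CG43245 (248.8), CG31668 (233.0), CG13898 (204.4), the cuticle gene Cpr76Ba (197.6), CG4702 (185.1), the bZIP factor gene Atf3 (184.2), CG12643 (175.8), the junctophilin gene jp (174.3) and CG7484 (172.9). All 20 were also in the conservative list, the shorter of the series' thresholded lists, and all 20 passed the IDR threshold in both replicates taken alone. The 20 were picked by height from a list made from the same replicates, so their presence in these lists is no independent check. No share is given for other pooled peaks of the same height. The nearest TSS was that of a non-coding gene for 6 of the 20. The 20 peaks were nearest to 17 different coding genes, and 12 lay upstream of the nearest coding TSS.

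Over all 218 members the signal value was 2.74 at the lowest, 84.5 at the median and 490.4 at the highest, with quartiles of 70.2 and 115.4. The other pooled peaks had a median of 92.6, the promoter-proximal ones 100.03 and those within genes 84.6. In replicate 1 the members' median was 47.2, against 48.4 at the other pooled peaks, and in replicate 2 it was 44.8, against 49.1. The medians of the classes lay within the quartiles of the members, and peaks are not replicates, so no difference between classes was tested.

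**Figure D1:**
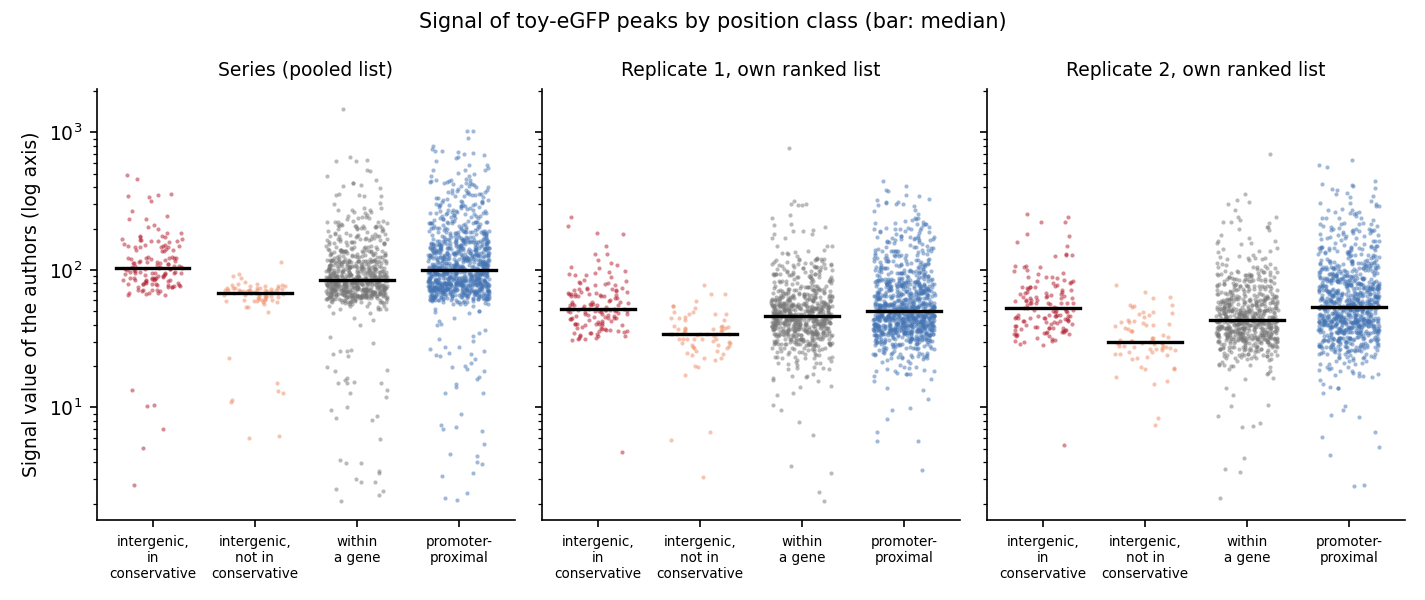
Signal value of each toy-eGFP peak (points, log axis) by position class, in the series and in the ranked list of each replicate, with the median as a bar. The 144 intergenic peaks of the conservative list have a median of 102.7 in the series, the 74 others 68.3, peaks within a gene 84.6 and promoter-proximal peaks 100.03.

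The conservative list held 144 of the 218 members, 66.1% (59.5 to 72.0%), where the share over all pooled peaks was 70.8%. Thresholded peaks of replicate 1 overlapped 91 members (41.7%), with 45.8% over all pooled peaks, and those of replicate 2 overlapped 110 (50.5%), with 53.3% over all. Both replicates held 65 members, 29.8% (24.1 to 36.2%), with 32.9% over all. Neither held 82 members, 37.6% (31.5 to 44.2%), with 33.8% over all. Each share lay within about 5 points of the share over all pooled peaks, and each background share lay inside the members' interval.

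The split by the conservative list went with height and with repetition in single replicates. Members in that list had a median of 102.7 in the series, 52.2 in replicate 1 and 53.1 in replicate 2. Members outside it had 68.3, 34.2 and 30.0. Of the 144, both replicates held 65 (45.1%) and neither held 31 (21.5%). Of the 74 outside it, both replicates held 0, which with a Wilson upper bound allows up to 4.93%, and neither held 51 (68.9%). All of these lists come from the same 2 libraries, so these counts describe the lists and are no independent check.

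Ranked peaks, whether or not they passed the threshold, overlapped 208 of the 218 members in both replicates (95.4%, against 93.2% of the other pooled peaks). Across these 208, replicate signal had a Spearman correlation of 0.50, while it was 0.59 across 1552 other pooled peaks with a value in both. These are descriptions over peaks that share libraries and mappability. The median log2 ratio of replicate 2 over replicate 1 was -0.05 with an SD of 0.81, with 12 members over 2-fold higher in replicate 2 and 13 over 2-fold higher in replicate 1. Of the 1552 other pooled peaks, 98 were over 2-fold higher in replicate 2 and 98 in replicate 1. No general lean to either replicate was seen.

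**Figure D2:**
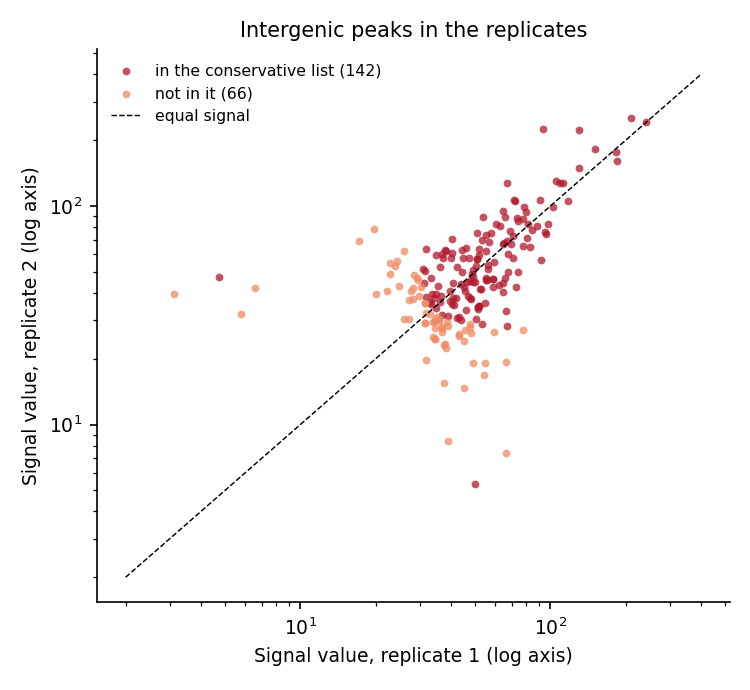
Signal value of the 208 intergenic peaks that both replicates ranked, replicate 1 against replicate 2, both on log axes, with the line of equal signal. Members of the conservative list reach 241.0 in replicate 1 and 253.1 in replicate 2, and the 6 points farthest from the line are shoulders of stronger peaks.

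Of the 14 lowest values, 13 belonged to shoulders of other peaks, and the other was a member near scyl (11.0) that overlapped no pooled peak. In those 13 members the peak overlapped a stronger pooled peak, with a signal of 2.74 to 22.9 (median 10.4) beside 58.7 to 112.7 (median 85.2) at the stronger peak, and their summits were 199 to 230 bp apart. Overlap with another pooled peak of any height was seen in 27 members (12.4%), with 10.4% over all pooled peaks. The 6 largest replicate ratios, 3 in each direction, were all of this kind. Upstream of ptc, the Hedgehog receptor, the shoulder had 5.05 in the series, 49.96 in replicate 1 and 5.36 in replicate 2, beside a peak of 94.4. A shoulder 12418 bp upstream of Myc, the growth regulator, had 11.3 in the series, 3.12 in replicate 1 and 39.6 in replicate 2. Those near Inx2 and Cipc were higher in replicate 1, with log2 ratios of -3.17 and -2.21. Near CG43401 and soti they were higher in replicate 2, with 3.32 and 2.67. A replicate value here is that of the ranked peak with the most shared bases, so a shoulder can carry the height of its neighbour.

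Just inside the limit of 500 bp were members at 510 bp (CG17896, 351.6), 527 bp (CG10479, 145.8), 536 bp (CG5973, 85.0), 539 bp (smal, 12.7) and 546 bp (CG3348, 108.2). Just outside it, and so counted as promoter-proximal, were summits at 485 bp (CG6602, 83.7), 473 bp (CG32137, 68.6), 471 bp (by, 40.3), 465 bp (Mkp3, 164.4) and 460 bp (CG12402, 63.3). Signal near the limit ran from 12.7 to 351.6 inside it and from 40.3 to 164.4 outside it, and the ranges overlapped.

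Members lay nearer to start sites than the weak intergenic peaks of the same ranked list. Their median distance to the nearest TSS was 2172 bp, with 4771 bp for the 33977 ranked intergenic peaks that did not pass the threshold. Within 2000 bp but beyond the limit lay 51 members at up to 1000 bp (23.4%, against 8.18% of those not passing) and 52 at up to 2000 bp (23.9%, against 14.5%). At over 20000 bp lay 8 members (3.67%, against 12.7%). The intervals of the members' shares, 18.3 to 29.4% for the nearest class and 1.87 to 7.07% for the farthest, held neither background share, and no test was made.

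**Figure D3:**
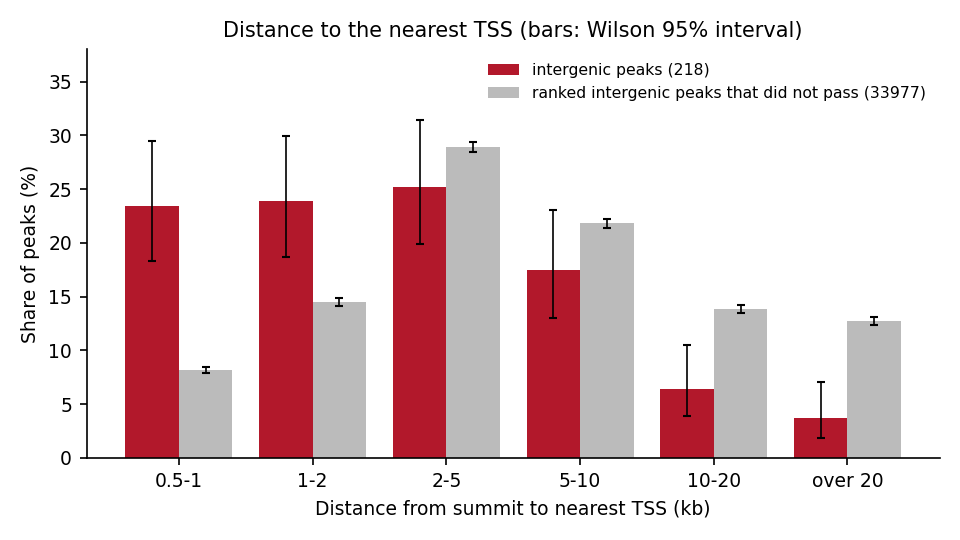
Share of peaks in classes of distance from the summit to the nearest TSS, for the 218 intergenic peaks and for 33977 ranked intergenic peaks that did not pass, with Wilson 95% intervals. In the class nearest to the TSS the members have 23.4% and the peaks that did not pass 8.18%.

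The start site nearest to a member belonged to a protein-coding gene in 139 cases (63.8%, against 66.5% of the peaks not passing), to a non-coding RNA gene in 75 (34.4%, against 28.7%) and to a tRNA gene in 4. Upstream of the nearest coding TSS lay 135 members (61.9%, against 59.5%). Coding genes pointing away from each other flanked 72 members (33.0%, against 24.9%), genes pointing toward each other flanked 45 (20.6%, against 22.1%), and genes in the same direction flanked 100 (45.9%, against 50.7%). The gap between flanking coding genes had a median of 20155 bp for members and 24485 bp for peaks not passing. Of the 218 members, 14 (6.42%, against 3.29%) were nearest to a coding gene with a pooled peak at its own promoter. Of the 3 orientations, the divergent one differed by the most points between members and peaks not passing, and no test was made of it.

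By arm, 67 members lay on 3L (30.7%, against 20.7% of the other pooled peaks), 55 on 2L (25.2%, against 17.3%), 41 on 3R (18.8%, against 23.0%), 29 on 2R (13.3%, against 19.9%) and 23 on X (10.6%, against 19.0%). Among ranked intergenic peaks that did not pass, 23.1% lay on 3L, 19.8% on 2L and 14.01% on X. Chromosome 4, which carries toy itself, held 1 member, at 4:424664-425003, 1233 bp from lncRNA:CR43437 and 19077 bp from lgs (legless, of the Wingless pathway). It had 148.9 in the series, 74.3 in replicate 1 and 85.0 in replicate 2.

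The Y chromosome held 2 members and none of the 1665 other pooled peaks. These were 0.92% of members, against 1.07% of ranked intergenic peaks not passing. At Y:975729-976068 the signal was 76.7 in the series and 63.6 in replicate 2. At Y:788581-788920 it was 70.2 in the series and 55.4 in replicate 2. Neither had a ranked peak in replicate 1, and neither was in the conservative list. The second lay over an opus element, 82479 bp from the nearest start site, farther than any other member. Transposable element insertions lay under 4 member summits (1.83%) and under 5 other pooled summits (0.30%). The other members over an insertion were near ATbp on X (19.6 in replicate 1 and 78.3 in replicate 2, 46179 bp from a TSS), near jing (62.4 and 43.3, 36751 bp) and near ed, a cell adhesion gene (30.8 and 51.5, 758 bp). No source used here says how reads that match several copies were placed, and these peaks are uncertain for that reason.

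The members next farthest from a TSS were 33851 bp from vvl, which encodes a POU homeodomain factor (105.9 in the series, 48.8 in replicate 1 and 49.1 in replicate 2), and 33191 bp from CG43245 (96.7, 47.9 and 45.3). Both were in the conservative list. Over all members, those in that list had a median TSS distance of 2020.5 bp and those outside it 2652.5 bp.

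The largest group of members lay upstream of chinmo, a gene for a BTB zinc-finger factor that sets early temporal identity in neurons. Here 6 members ran over 21355 bp of the gap of 37097 bp between chinmo and RFeSP, which encodes the Rieske iron-sulphur subunit of respiratory complex III. The strongest, 12470 bp upstream of the TSS, had 341.3 in the series, 150.5 in replicate 1 and 182.9 in replicate 2. The next, at 18472 bp, had 270.1 in the series, 129.8 in replicate 1 and 148.7 in replicate 2. The remaining strong one, at 7841 bp, had 212.8 in the series, 118.1 in replicate 1 and 105.4 in replicate 2.

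The weaker chinmo peaks filled the spaces around these. At 16935 bp the signal was 114.4 in the series, 77.3 in replicate 1 and 27.1 in replicate 2, and this member alone of the 6 was outside the conservative list. At 22856 bp it was 110.5 in the series, 56.2 in replicate 1 and 53.8 in replicate 2. At 1501 bp it was 91.6 in the series, 44.4 in replicate 1 and 63.2 in replicate 2. The peak nearest the gene was thus the weakest of the 6 in the series, and no pooled peak lay at the chinmo promoter itself. The sequences of the 3 strongest, printed above, were rich in A and T. G and C made up 25.7, 28.7 and 18.8% of them within 50 bp of the summit. No motif marked in capitals was common to all 3.

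**Figure D4:**
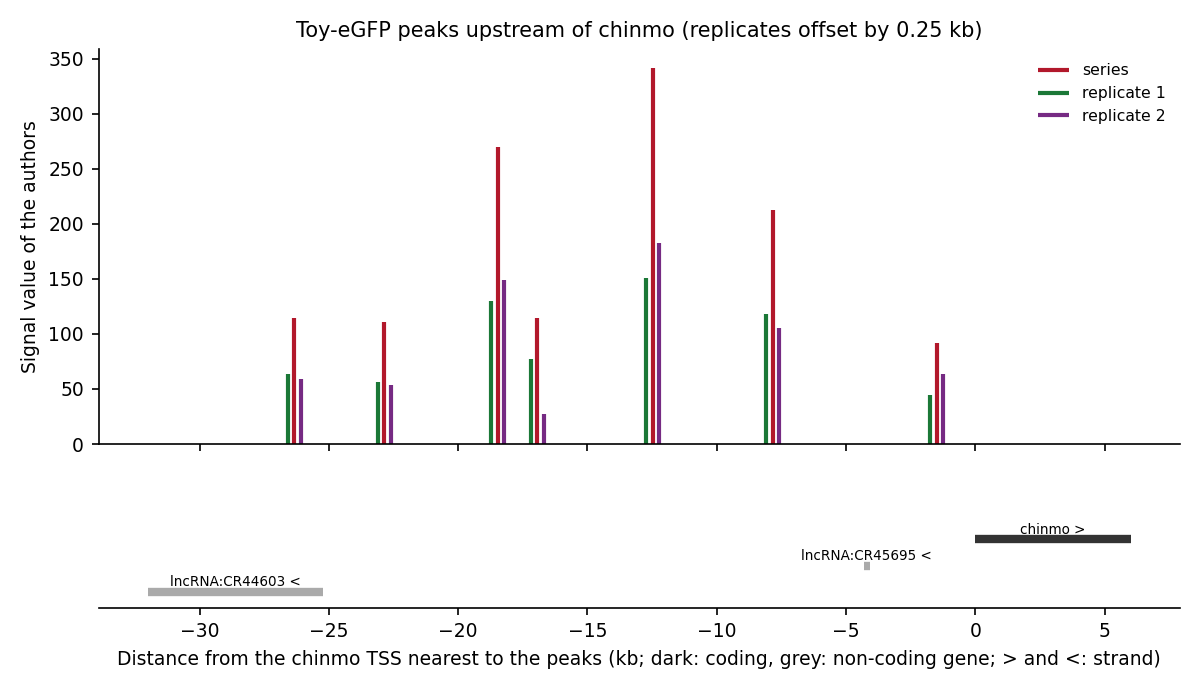
Signal value of the toy-eGFP peaks upstream of chinmo in the series and in each replicate, by distance from the chinmo TSS in kb, over the genes of the region. The 3 tallest peaks reach 341.3, 270.1 and 212.8 in the series and stand well upstream of the TSS, and the leftmost peak lies within a non-coding gene and is not a member.

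Runs of 3 or more members, each within 10 kb of the next, were found at 9 places and held 34 members. Near CG7560 on 3L, 4 members over 5490 bp had 102.1, 138.5, 161.4 and 84.1 in the series, and all 4 were in the conservative list. The tara peak described above was the strongest of a run of 4 in which the others had 54.0, 58.5 and 77.6. Downstream of noc, which encodes a zinc-finger protein of the eye and ocelli, 3 members had 68.6, 123.3 and 115.5. Further runs lay by CG6739 and Slob (5 members, 22.9 to 78.1), CG4218 and CG3473 (3 members, 64.6 to 87.4), hry and SrpRbeta (3, 60.7 to 99.8), scyl (3, 11.0 to 116.2) and Myc (3, 11.3 to 100.04). In the runs by CG6739, scyl and Myc the lowest value was under 25 units. By CG6739 and Myc this lowest member was a shoulder of another member of the run. Without its shoulder the Myc group would be no run of 3. Pooled peaks of any class lay within 10000 bp of 104 members (47.7%, against 51.7% of the other pooled peaks), so members were not more crowded than other peaks by this count.

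The members were nearest to 169 different coding genes, of which 35 had 2 or more members and 9 had 3 or more. These counts include the 13 shoulders described above, each nearest to the same gene as another member. Without them fewer genes would have 2 or more members, and CG6739 and Myc would not reach 3. Lists of developmental and housekeeping genes held the nearest gene of 28 members (12.8%), against 11.5% of all pooled peaks and 12.4% of ranked intergenic peaks not passing. Those shares were close, and the members as a whole did not stand apart in how often they neighboured a listed gene. Single lists held few members, and the list counts below are descriptions.

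Genes of neuroblast temporal identity were nearest to 6 members (2.75%, against 0.42% of all pooled peaks and 0.44% of ranked intergenic peaks not passing), but 5 of these were the chinmo peaks and the other lay 4312 bp upstream of slp2, a forkhead factor, with 152.6 in the series, 80.3 in replicate 1 and 71.4 in replicate 2. Head gap and segmentation genes were nearest to 7 members (3.21%, against 0.80% of all pooled peaks and 1.89% of ranked intergenic peaks not passing), a shoulder by ptc included, led by slp2, the segment-polarity homeobox gene en (94.8) and ptc (94.4). Homeobox genes outside the Hox and Pax lists were nearest to 3 members (1.38%, against 0.58% of all pooled peaks and 2.63% of ranked intergenic peaks not passing), a pair by vvl (105.9 and 105.5) and the en peak. No member was nearest to a gene of the retinal determination, Pax or Hox lists, and all pooled peaks had 3, 1 and 0 there. Of ranked intergenic peaks not passing, 0.43, 0.16 and 0.21% were nearest to these lists. At shares this low, 0 of 218 members is no result about these genes. By either flanking gene the retinal determination list had 1 member and the Pax and Hox lists 0.

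Signalling genes of the Notch, EGFR, Wnt, Hedgehog and FGF lists were nearest to 6 members (2.75%, against 1.27% of all pooled peaks and 0.88% of ranked intergenic peaks not passing). These were the ptc peak and its shoulder, a pair 882 and 1494 bp upstream of aop, the ETS repressor also called Yan (85.8 and 87.2), and one each by kek1, which restrains the EGF receptor (74.4), and Wnt10 (59.7). The aop peaks had 47.7 and 40.6 in replicate 1 and 37.8 and 44.5 in replicate 2. Muscle and mesoderm genes were nearest to 4 (1.83%, against 0.74% and 0.68%), the T-box genes Doc2 (95.5) and H15 (77.1), the forkhead gene bin (79.5) and the myosin gene Mhc (70.2). Neural zinc-finger and bHLH genes were nearest to 3 (1.38%, against 0.37% and 1.00%), a pair by the repressor gene hry (73.5 and 60.7) and one by Sox21a (68.9).

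Among the other lists, the epidermis and trachea list had the same 2 vvl peaks, and the ecdysone list had 2 by Eip75B (103.3 and 72.0), a nuclear receptor gene. One member each lay nearest to cpo, a neural RNA-binding protein gene (155.0 in the series, 66.0 in replicate 1 and 89.1 in replicate 2), ph-d of the Polycomb list (136.9, with the list at 0.46% of members, against 1.27% of all pooled peaks and 0.29% of those not passing), the gustatory receptor gene Gr89a (89.0), Cpr76Ba of the cuticle list (197.6), Doc2 of the dorsoventral list and kek1 of the axon guidance list. Lists of glia, of endoderm, fat body and hemocytes, of phototransduction, of mitochondrial ribosomal proteins and of histones had 0 members. Cytoplasmic ribosomal protein genes also had 0, against 2.39% of all pooled peaks and 0.66% of ranked intergenic peaks not passing. Peaks at the promoters of such genes are outside the members by the rule.

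Summits of members were a trough of G and C between richer shoulders. Within 100 bp of the summit the members had a median of 38.8% G and C, the other pooled peaks 36.3% and the ranked intergenic peaks not passing 45.3%. Members in the conservative list had 36.8% and those outside it 45.8%, near the value of the peaks not passing. In steps of 20 bp the members' mean fell to 37.2% centred 10 bp below the summit, with 45.6% at 130 bp below it. The other pooled peaks had a minimum of 35.1% at the same step, and the peaks not passing had 45.5% there, with no trough. Windows moved by 1000 bp toward higher coordinates had a median of 40.8% for members, and those moved toward lower coordinates 42.5%.

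**Figure D5:**
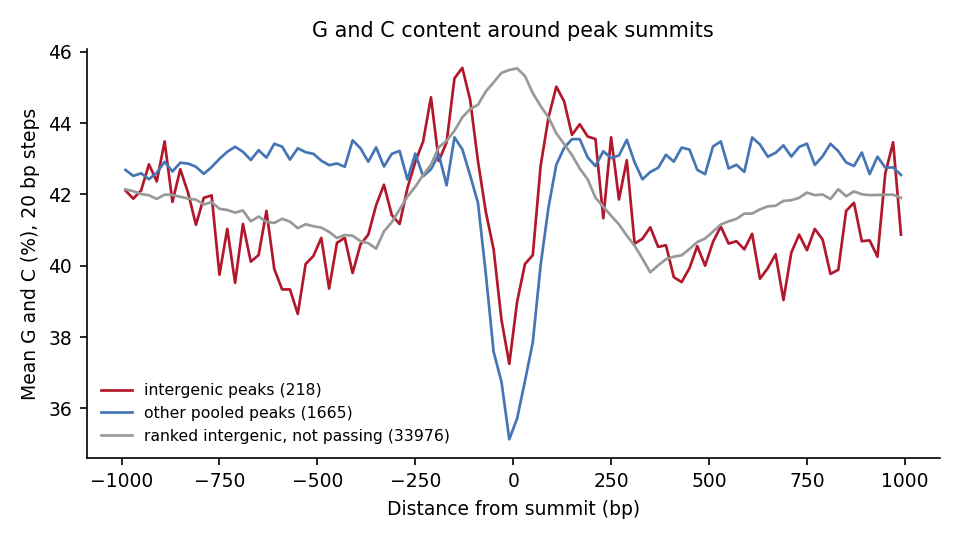
Mean G and C content in steps of 20 bp by distance from the summit, for the 218 intergenic peaks, the 1665 other pooled peaks and the ranked intergenic peaks that did not pass. The members fall to 37.2% beside the summit between shoulders of up to 45.6%, and the peaks that did not pass are highest near the summit.

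Motif matches within 100 bp of the summit were counted on both strands, and a match is only the presence of letters. The Pax6 paired-domain consensus with up to 2 mismatches was in 20 members, 9.17% (6.02 to 13.7%), in 11.0% of the members' windows moved by 1000 bp and in 10.6% of all pooled peaks. Its letters written backwards, a control of the same composition, were in 15.6% of members. The homeodomain dimer with up to 1 mismatch was in 53 members, 24.3% (19.1 to 30.4%), in 23.4% of the moved windows, in 29.8% of all pooled peaks and in 16.8% of ranked intergenic peaks not passing. The homeodomain core TAATTA, which can lie within a dimer, was in 11.5% of members, 12.4% of moved windows and 15.2% of all pooled peaks. On the other side, in windows moved toward lower coordinates, the paired consensus was in 7.34%, the dimer in 17.9% and TAATTA in 13.3%. Within 50 bp of the summit the dimer was in 35 members, 16.1% (11.8 to 21.5%), against 10.6% of windows of that size moved toward higher coordinates and 8.26% of those moved toward lower ones. Within 200 bp it was in 36.2% of members, against 44.0% and 38.1%. The dimer's share beside that of the moved windows thus changed direction with the size of the window, while the members' intervals for the paired consensus within 100 bp held both moved shares.

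Letters bound by other factors were also counted. The GAGA factor site GAGAGA was in 26 members, 11.9% (8.27 to 16.9%), against 6.42% of the moved windows, 6.88% of those moved toward lower coordinates, 10.8% of all pooled peaks and 6.63% of peaks not passing. The BEAF-32 site CGATA was in 21.1% of members and 25.4% of all pooled peaks. It was in 19.3% of moved windows and 22.9% of those moved toward lower coordinates. The DRE TATCGATA, a core promoter element that contains that site, was in 1 member (0.46%) and in 4.56% of the promoter-proximal peaks. Motif 1 core GGTCACAC was likewise in 1 member, and in 2.18% of the promoter-proximal peaks. The repeat CACACACA was in 3.67% of members and 6.42% of moved windows.

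The Zelda site CAGGTA was in 3.21% of members and of moved windows alike, and in 1.83% of those moved toward lower coordinates. The CTCF core AGGTGGC was in 1.83% of members, 0.92% of moved windows and 2.75% of those moved toward lower coordinates. The E-box CANNTG was in 59.6% of members, 61.9% of moved windows and 70.2% of windows moved toward lower coordinates, and its Twist form CATATG in 5.96% and 6.88%. The Pho core GCCAT, searched after the strongest peak was seen to lie by Su(z)2, was in 32.1% of members, 33.9% of moved windows, 39.4% of those moved toward lower coordinates and 42.2% of peaks not passing. Among all 2080 6-mers counted on both strands, the largest excess over the moved windows was that of AAAAAT, in 52.3% of members and 37.6% of moved windows, with 50.5% in the other pooled peaks. CATACA was in 20.2% of members, 8.72% of moved windows and 12.5% of other pooled peaks, and CATGTA in 12.4%, 3.67% and 6.55%. ACAGTG was in 17.0%, 6.42% and 19.9%. The largest deficit was that of AGCTGG, in 5.50% of members, 17.4% of moved windows and 8.35% of other pooled peaks. These 6-mers were picked as the extremes of many, and no test of them was made. The moved windows used for them were only those toward higher coordinates.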

How the data were processed

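ChIP-seq of toy-eGFP was made in 2 biological replicates of whole embryos, per the labels. Each peak carries the authors' signal value, deposited with the peak lists, and the deposited −log10 of the global IDR. No source used here gives the scaling of the signal, the aligner or the caller. Coordinates are on dm6, per the labels, and are printed 1-based. Read depth is unknown; replicate 1 had 925 thresholded and 81037 ranked peaks, and replicate 2 had 1098 and 115142. The series' ranked lists have 8 further columns of values that no label assigns to a replicate, and they were not used. The labels name a possible control, not analysed here.

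Genes came from Ensembl release 115, leaving out transposable element insertions, and sequence from RefSeq. Of 17796 genes in both annotations, 17793 had the same start and end. A peak counted as in a list where it shared any base with a peak of it. Shares carry Wilson 95% intervals, which cover counting error only. No significance test was made, since peaks are not replicates. The members, gene lists (470 of 478 entries matched) and motifs were chosen with earlier results of these data known. Named were the 20 strongest members, the 5 farthest from a TSS, the 5 on each side of the limit, those on chromosomes 4 and Y, runs, the extremes of the replicate ratio and up to 4 members per list. Routines written in Python 3.11.15 with numpy 2.4.6 were tested on simulated peaks, and gave 100% right position classes. Alternatives changed the TSS limit, annotation, IDR, list, overlap and windows.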

Additional observations from a re-analysis of the deposited data

How the results depend on the processing

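Of 52 alternative values, 38 stayed within the spread or within 1.5 times of the value reported, 13 moved further and 1 changed sign. The 38 include the values by peak centre and by the RefSeq annotation, which were the same as those reported. The 218 members became 281 with a limit of 250 bp, 167 with 1000 bp and 115 with 2000 bp, 278 with coding genes alone and 159 in the conservative list. At an IDR of 0.001 they were 63, of which 100% were in the conservative list and 87.3% in both replicates, and their median signal minus that of the other peaks was -4.07, against -8.05 in the list used. From the thresholded list of a single replicate the members were 99 to 119, with a median difference of -5.35 to -5.01. Their median signal was 64.7 for the 99 and 60.5 for the 119, against 84.5 in the series list. These differences are thus not on the same scale as -8.05. After the data were seen, counting transposable elements as genes gave 212 members, and leaving out the weaker peak of each overlapping pair gave 205 and a replicate correlation of 0.53. The G and C content of summits minus moved windows, -1.99 points within 100 bp of the summit, turned to 0.87 within 200 bp, which takes in the richer shoulders. It was -3.73 with windows moved to lower coordinates and -4.98 to -3.48 for the intergenic peaks of each replicate's own thresholded list. Members beside a listed gene were 50 by either flanking gene and 28 by the nearest TSS. Depth is unknown, so an absent peak in a replicate may lie below what its depth could show. No paired analysis was possible because there is 1 group and no contrast between groups.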

Other observations

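Members beside Polycomb group genes were looked up by either flanking gene, after the strongest peak was seen to lie by Su(z)2. There were 5, and no background count was made by flanking gene. By the nearest gene the Polycomb list held 1 member (0.46%), against 1.27% of all pooled peaks. Besides that peak, a pair lay between CG13321 and Psc, the Polycomb group neighbour of Su(z)2, with 163.5 and 79.4 in the series, 88.3 and 33.6 in replicate 1 and 80.9 and 39.5 in replicate 2. Another lay 10803 bp from the other end of Psc with 78.5 in the series and 33.6 in replicate 1, and no ranked peak in replicate 2. Between the sister genes ph-d and ph-p, a peak had 136.9 in the series, 65.2 in replicate 1 and 67.5 in replicate 2. RYBP, a partner of the same complexes that the list did not hold, had a pair of members downstream with 236.4 and 112.4 in the series, 105.5 and 67.7 in replicate 1 and 130.8 and 49.8 in replicate 2. No test was made of this group.

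Peak width went with height. The 18 members narrower than 340 bp, 85 to 231 bp wide, had a median signal of 218.7 and 17 of them were in both replicates, while the 200 members of 340 bp had a median of 79.4 and 48 in both. Among the 20 strongest members, 15 were narrower than 340 bp. No source used here says how these widths were set.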
